A study of Mus musculus with 30 samples.

Results

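The 39 genes described here are interferon response genes of the mouse. They comprise 11 genes of the IFIT, OAS and ISG15 families of antiviral effectors, 7 GTPases of the guanylate-binding protein (GBP) and immunity-related GTPase (IRG) families, 4 transcription factors of the pathway, 3 sensors of foreign nucleic acid, 7 enzymes and regulators of ISG15, ubiquitin and ADP-ribose chemistry, and 7 other induced effectors. They were chosen by symbol, with no measured value in the rule, though earlier results of these data were known at the time. Each symbol matched 1 of the 54146 genes of the deposited count table. Of the 39 genes, 37 had reads in all 29 assigned libraries, and Gbp6 and Iigp1 had reads in 27.

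Interferons are secreted signals of the antiviral response. Type I and type III interferons act through receptors that activate Janus kinases, and the resulting STAT complex, which holds STAT2 and IRF9, binds the interferon-stimulated response element (ISRE) of target genes such as the IFIT, OAS and ISG15 genes. Interferon gamma acts at the gamma-activated site (GAS) and, through IRF1, at the ISRE, and it is the classical inducer of the GBP and IRG genes. In the intestine the epithelium responds above all to type III interferon, while lymphocytes that lie between the epithelial cells can make interferon gamma.

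Gene expression was measured by 3' end RNA sequencing in epithelium of the small intestine of female C57B6/J mice aged 8 to 10 weeks. All mice, controls included, were moved for 1 week from standard chow to the semi-purified diet AIN93G, which lacks dietary ligands of the aryl hydrocarbon receptor (AHR), a ligand-activated transcription factor. They then received by gavage corn oil alone (vehicle, 3 mice) or 10 µg of indolo[3,2-b]carbazole (ICZ, an AHR agonist; 3 mice), and 12 h afterwards the epithelium was collected. Stepwise EDTA treatment detached it in 5 portions per mouse, named F1 to F5 in order, and 15 vehicle and 14 ICZ libraries were used, with no F1 value for ICZ replicate 3. The labels name no engineered allele, and they give the order of release but not the position of a fraction between villus tip and crypt base.

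Reads assigned to genes numbered 4359673 to 7819837 per library. Cyp1a1, the enzyme gene most used as a readout of AHR activity, had 0 or 1 read in each vehicle library and 53 to 596 reads in each ICZ library. The 10 genes of most reads took 22.4% to 54.3% of the gene reads, with the highest share in the F5 library of ICZ replicate 1. Levels below are CPM, read counts relative to the library's gene reads, scaled with TMM factors, and differences are log2 fold changes from edgeR with their SE. A gene is called changed where the adjusted p over all genes tested was below 0.05.

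The members lie in clusters. Ifit2, Ifit3, Ifit1bl1, Ifit3b and Ifit1 lie side by side on chromosome 19 of GRCm38, from 34550694 to 34650009, and Oas1a, Oas2, Oas3, Oasl1 and Oasl2 lie on chromosome 5. Gbp2, Gbp3 and Gbp7 lie on chromosome 3, and Dtx3l (chr16:35926511-35939151) and Parp9 (chr16:35938470-35972605) overlap on opposite strands. Near-identical copies limit some counts: of the 50-base stretches in the last 400 bases of the transcripts, Gbp6 shared 88.0% with other genes including Gbp10, Oas1a 43.6% with Oas1g, Ifit3 19.1% with Ifit3b and Ifit1bl1 9.40% with Ifit1bl2. Gbp6 and Oas1a are therefore uncertain. Exons of 9 members overlap a gene on the other strand, among them Irf1 and Irf7, and reads of overlapping partners cannot be told apart without a stated strand setting. Exons of 6 members, Gbp6, Gbp7, Igtp, Irf9, Parp14 and Rtp4, overlap a gene on the same strand. There a strand setting would not separate the reads.

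Promoter sequence was available for 30 members in the RefSeq table of GRCm38.p6, as windows of 250 bases before to 50 after the start site. The core of the ISRE, searched on both strands as GAAA, any 2 bases and GAAA again, was found in 18 of the 30 (60.0%), against 3.99% of all 27025 genes with such windows. It stood in 5 of 5 members of the GBP/IRG group, 7 of 10 of the IFIT/OAS/ISG15 group, both sensors with a window, and 1 of 4 enzymes, 2 of 5 other effectors and 1 of 4 transcription factors. Because this was the most widely shared of the 3 motifs searched, 30-base stretches around it are shown for both antiviral groups, read 5′ to 3′ on the strand of the gene, with the match in capitals. A core on the other strand reads TTTC, 2 bases and TTTC.
Ifit1 (chr19:34640794-34640823): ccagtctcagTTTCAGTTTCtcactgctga
Ifit1bl1 (chr19:34602053-34602082): actctgtaggTTTCATTTTCtgtaggttgg
Ifit3 (chr19:34583363-34583392): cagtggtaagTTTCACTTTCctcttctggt
Isg15 (chr4:156200871-156200900): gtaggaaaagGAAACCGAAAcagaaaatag
Oas1a (chr5:120907520-120907549): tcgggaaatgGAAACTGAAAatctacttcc
Gbp2 (chr3:142620594-142620623): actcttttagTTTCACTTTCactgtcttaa
Gbp7 (chr3:142530273-142530302): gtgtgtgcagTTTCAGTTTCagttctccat
Igtp (chr11:58199512-58199541): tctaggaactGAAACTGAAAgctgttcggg
Irgm1 (chr11:48871425-48871454): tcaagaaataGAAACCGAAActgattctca
The stretch of Ifit3 occurs letter for letter in the window of its neighbour Ifit3b (chr19:34607759-34607788). The matches of Gbp7 and Igtp lay at -53 to -44 and -34 to -25 from the start site, and those of Ifit1 and Ifit3 shown here at -85 to -76 and -156 to -147.

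The GAS core, TTCNNNGAA, reads alike on both strands. It was found in 7 of 30 members (23.3%), against 9.55% of all genes. These were 2 of 5 of the GBP/IRG group, 2 of 10 of the IFIT/OAS/ISG15 group, 2 of 5 other effectors and 1 of 4 transcription factors. Gbp2, Gbp3 and Irgm1 had windows but no match. Ifit2, Oas1a, Bst2 and Ifi35 had a match that is not printed. The core is shown for the matching members in which interferon gamma is the textbook inducer.
Gbp7 (chr3:142530239-142530267): aagcagaagcTTCTCAGAAagtcagcaca
Igtp (chr11:58199501-58199529): aactagccatTTCTAGGAActgaaactga
Irf1 (chr11:53769914-53769942): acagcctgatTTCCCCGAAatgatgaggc
In Igtp the GAS core at -45 to -37 directly preceded the ISRE core printed above. The core of the AHR response element, GCGTG on either strand, was present in 11 of 30 members (36.7%) and in 35.2% of all genes, a share near the background. A match describes letters only and is no measured binding site.

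In vehicle mice the interferon response genes were highest in the tissue released first and fell towards the tissue released last. The mean of 32 of the 39 genes was highest in F1, and the median gene stood at 55.7% of its F1 mean in F5. Of the 37 members that passed the filter on low counts in this comparison, 23 fell from F1 to F5 and 0 rose (edgeR with the mouse as a block). Of all 13164 genes tested 28.1% were called, with 13.2% lower and 14.9% higher. The value of 36 members was negative (48.2% of all genes), with a median of -0.88. The F5 values of 29 lay below all F1 values (17.6% of all genes), and those of 0 above them (19.7%). In bulk samples fewer cells of a type and less RNA per cell cannot be told apart.

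In the IFIT/OAS/ISG15 group, whose products bind viral RNA, degrade it through 2-5A synthesis or tag proteins, 4 of 11 genes fell and the median was -1.05. Ifit3, an adaptor of the IFIT complex, had 21.4, 32.4 and 29.4 CPM in F1 of vehicle replicates 1 to 3 and 6.12, 11.3 and 6.79 CPM in F5, a log2 fold change of -1.75 ± 0.28 (SE; adjusted p = 0.000438). Isg15, the ubiquitin-like modifier itself, had 60.4, 75.5 and 71.7 CPM in F1 and 23.0, 30.4 and 12.2 CPM in F5 (log2 fold change -1.70 ± 0.32, adjusted p = 0.00262). For both genes every F5 value lay below every F1 value. Oasl2 changed by -1.04 ± 0.26 (adjusted p = 0.0113) and Oas3 by -1.44 ± 0.28 (adjusted p = 0.00101). Ifit1, which binds RNA that lacks the host cap mark, went from 152, 197 and 244 CPM to 74.0, 118 and 30.9 CPM without overlap, but missed the threshold (log2 fold change -1.50 ± 0.50, adjusted p = 0.0534). Ifit1bl1, a rodent IFIT1-like gene (-1.39 ± 0.50, adjusted p = 0.0701), and Oasl1, a repressor of Irf7 translation (-0.80 ± 0.36, adjusted p = 0.124), missed it too. In Ifit1bl1 the F5 library of vehicle replicate 2 held 74.1 CPM against 25.9 and 17.4 in the other two.

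In the GBP/IRG group, GTPases that attack the vacuoles of intracellular pathogens, 1 of the 5 genes tested fell and the median was -0.60. Igtp (also called Irgm3) had 47.3, 31.9 and 43.4 CPM in F1 and 27.0, 18.1 and 18.3 CPM in F5, a log2 fold change of -0.95 ± 0.17 (adjusted p = 0.000792) with no overlap. The exons of Igtp overlap those of its neighbour Irgm2 on the same strand. Gbp7 had 18.6, 29.04 and 43.4 CPM in F1 and 18.4, 26.0 and 13.6 CPM in F5, values that overlapped (log2 fold change -0.60 ± 0.28, adjusted p = 0.121). Gbp6 and Iigp1 did not pass the filter, with group means of at most 1.13 CPM, and Gbp2 and Irgm1 had means of at most 3.56 CPM. Whether the IFIT/OAS/ISG15 and GBP/IRG groups differ in their decline was not tested.

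**Figure D1:**
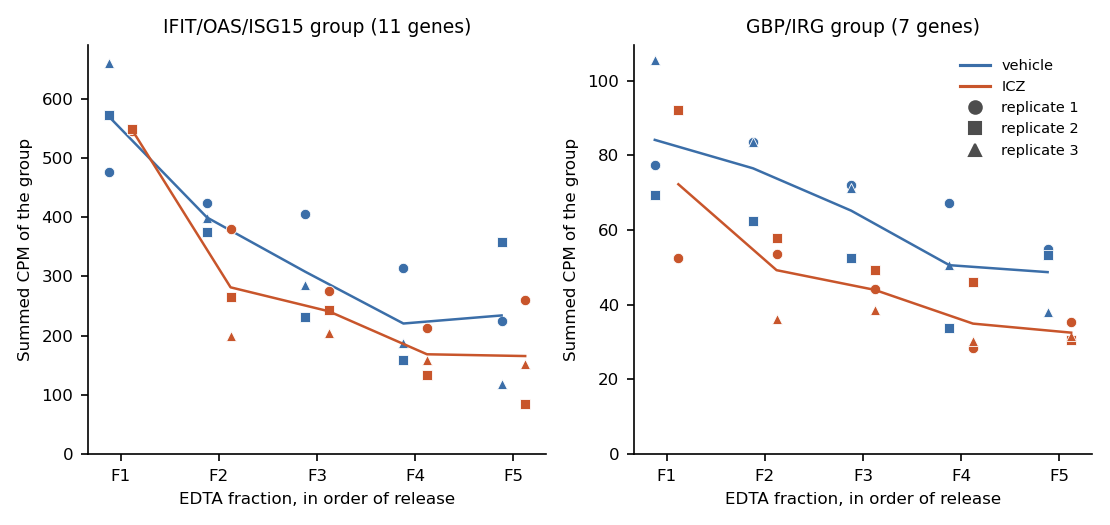
Summed CPM of the IFIT/OAS/ISG15 group (left, 11 genes) and the GBP/IRG group (right, 7 genes) in each library, by fraction; symbols give the replicate, colours the treatment, lines the mean. Vehicle means fell from 570 CPM in F1 to 234 CPM in F5 on the left and from 84.1 to 48.7 CPM on the right, and the GBP/IRG sums of F2, F3 and F5 did not overlap between ICZ and vehicle.

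The summed level shows how the mice differed within this decline. Vehicle replicate 2 returned to 358 CPM of IFIT/OAS/ISG15 transcripts in F5 after 160 CPM in F4, whereas replicate 3 went from 661 CPM in F1 to 119 CPM in F5. The GBP/IRG sum of the vehicle mice spanned 69.5 to 106 CPM in F1 and 38.1 to 54.9 CPM in F5.

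All 4 transcription factors fell in vehicle mice from F1 to F5. Irf7, the factor that amplifies interferon production and is itself induced, had 126, 140 and 135 CPM in F1 and 66.2, 73.9 and 47.6 CPM in F5 (log2 fold change -1.09 ± 0.20, adjusted p = 0.00103). Irf1, which relays interferon gamma signals, fell from 345, 403 and 431 CPM to 311, 257 and 234 CPM (-0.56 ± 0.13, adjusted p = 0.00485). Irf9, the DNA-binding part of the STAT complex, changed by -0.40 ± 0.14 (adjusted p = 0.0386) and Stat2 by -0.74 ± 0.21 (adjusted p = 0.0131). In each of the 4 genes no F5 value reached the F1 values.

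The 3 sensors fell as well. Ddx58, which encodes RIG-I, had 95.0, 102 and 105 CPM in F1 and 64.1, 57.3 and 43.5 CPM in F5 (log2 fold change -0.88 ± 0.14, adjusted p = 0.000283). Ifih1, which encodes MDA5, changed by -0.70 ± 0.21 (adjusted p = 0.0211) and Zbp1, a sensor of Z-form nucleic acid, by -1.23 ± 0.26 (adjusted p = 0.00346). Among the enzymes and regulators 6 of 7 fell, with Xaf1 the exception (-0.56 ± 0.28, adjusted p = 0.141). Parp14, an ADP-ribosyltransferase, had 199, 224 and 218 CPM in F1 and 127, 131 and 82.1 CPM in F5 (-0.93 ± 0.17, adjusted p = 0.00118). The partners Dtx3l, a ubiquitin ligase, and Parp9 changed by -0.65 ± 0.14 and -0.58 ± 0.21 (adjusted p = 0.00197 and 0.0474). Among the other effectors 5 of 7 fell. Ifi27 had 83.4, 94.6 and 76.7 CPM in F1 and 48.8, 42.4 and 43.2 CPM in F5 (-0.92 ± 0.14, adjusted p = 0.00013), and Ifi44 26.9, 18.7 and 25.6 against 8.998, 11.5 and 8.49 CPM (-1.24 ± 0.22, adjusted p = 0.000562). Bst2, the tetherin that holds virions at the cell surface, overlapped between fractions (-0.68 ± 0.32, adjusted p = 0.143).

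Tested over all 5 fractions together, 20 of 37 members differed among the fractions of vehicle mice, against 20.6% of all genes. The count depended on vehicle replicate 3: without it 7 members fell from F1 to F5 (Ifi35, Irf7, Ifi44, Parp14, Ddx58, Ifi27 and Ifit3) and 0 passed the test over all fractions. Without it 886 genes in all were called between F5 and F1, against 3703 with it, and 34 members still had a negative value.

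Other cell markers moved along the same axis. All 13 absorptive enterocyte markers had negative values from F1 to F5 in vehicle mice (12 fell, median -1.14), and 12 of 13 stem cell and proliferation markers rose (median 1.26). All 16 intraepithelial T cell markers tested had negative values (2 fell, median -0.96); their summed level was 427 to 1195 CPM in F1 and 293 to 448 CPM in F5, and none was at 0 reads. All 13 immediate early and dissociation stress genes rose (median 2.87). The part of these differences in the decline of the interferon response genes was not tested.

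In ICZ mice 31 of 37 members fell from F1 to F5 and 0 rose. Of all 13328 genes tested 32.6% were called, 16% lower and 16.5% higher. The value of 36 members was negative (47.7% of all genes), and the median was -1.15. In the IFIT/OAS/ISG15 group 8 of 11 fell with a median of -1.74, and in the GBP/IRG group 3 of 5 fell with a median of -0.92. Ifit3 had 27.3 and 28.7 CPM in F1 of ICZ replicates 1 and 2 and 8.27, 3.37 and 4.25 CPM in F5 of replicates 1 to 3 (log2 fold change -2.47 ± 0.28, adjusted p = 6.77e-06). Igtp had 25.4 and 44.0 CPM in F1 and 8.27, 14.7 and 8.65 CPM in F5 (-1.50 ± 0.20, adjusted p = 3.18e-05). Irgm1, a regulatory IRG protein, was the exception in sign: 1.31 and 1.72 CPM in F1 and 2.57, 3.25 and 3.46 CPM in F5 (1.09 ± 0.48, adjusted p = 0.0922). It was the 1 member with F5 values above all F1 values (23.5% of all genes), while 31 lay below them (23.7%). Without ICZ replicate 2 a single ICZ library, that of replicate 1, is left in F1, so no count is given for that fit.

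**Figure D2:**
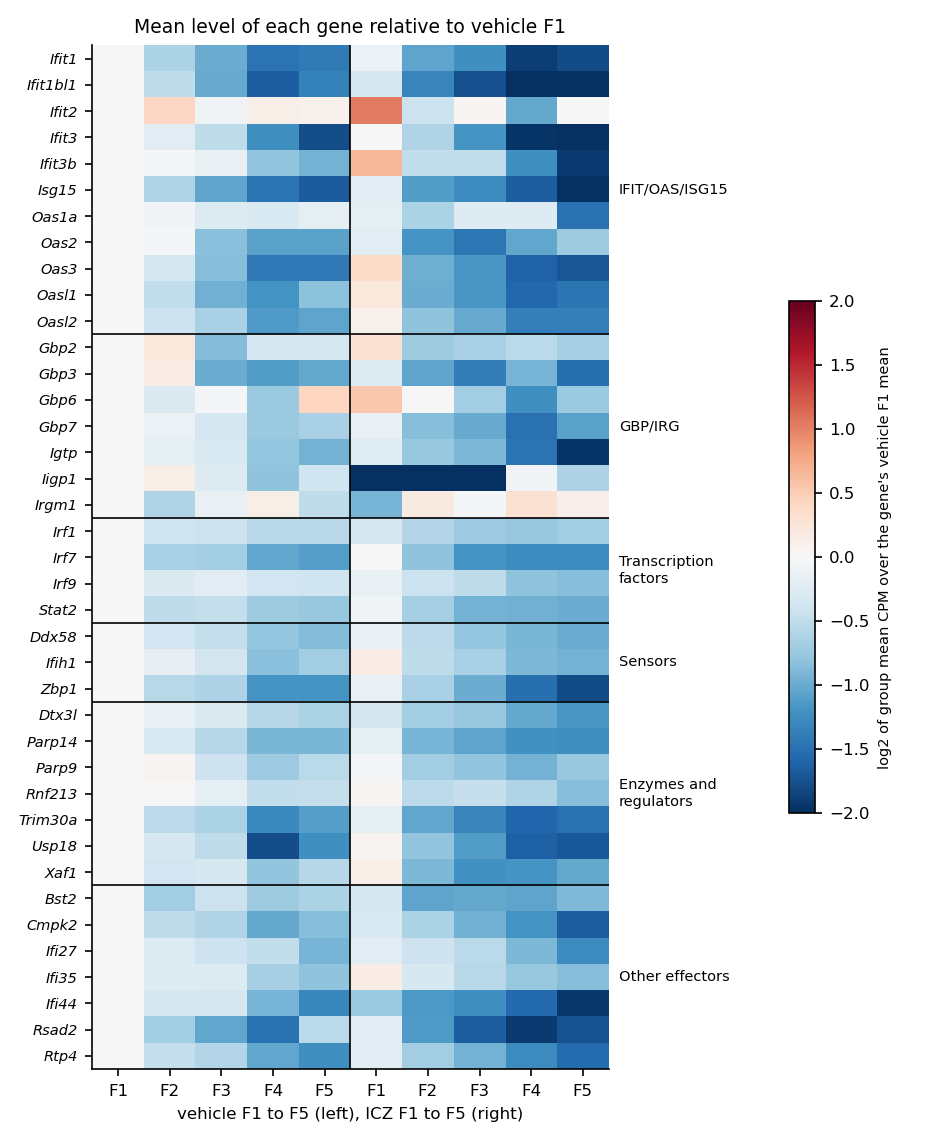
Mean CPM of each of the 39 genes in each group as log2 of the ratio to the gene's own vehicle F1 mean; columns are F1 to F5 of vehicle (left) and ICZ mice (right), rows are ordered by role, and colours are limited at 2 in either direction. Most rows turn to lower values towards F4 and F5 in both treatments; Ifit2, Irgm1, Gbp6 and Iigp1, genes of few reads, do not in at least 1 of them.

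ICZ mice had lower mean levels of nearly all interferon response genes than vehicle mice. With the counts of F2 to F5 summed per mouse, 38 of the 39 members had a negative log2 fold change, where 48.8% of all 15497 genes tested had one, and the median of the members was -0.41 against 0.01 over all genes. No member passed the threshold in the fit without pairing, in which 0 of all genes (0%) passed. DESeq2 called 2 members and 13 genes. ICZ values of 13 members lay below all vehicle values, as in 5.86% of all genes, and those of 1 member, Irgm1, above all of them, as in 5.65%. Irgm1 had 2.03, 2.80 and 2.63 CPM in vehicle replicates 1 to 3 and 3.39, 3.35 and 2.93 CPM in ICZ replicates 1 to 3 (0.37 ± 0.20, adjusted p = 0.852).

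The labels state no pairing of the mice, but same-numbered mice deviated together in the summed counts (r = 0.247 to 0.472). With the replicate number as a block, a choice made from these same counts, 15 members fell with ICZ and 0 rose. Over all genes 231 were called with the block, 1.49% of those tested, with 0.742% lower and 0.749% higher. The members that fell were Ifit1bl1, Ifit3, Isg15, Oasl1 and Oasl2, then Gbp7, then Irf7 and Irf9, then Dtx3l, Parp9, Parp14, Trim30a and Xaf1, and Bst2 and Ifi44. In all 3 same-numbered pairs the ICZ value was the lower for 35 of 39 members, all but Ifit2, Igtp, Irgm1 and Iigp1. The share of all genes lower in all 3 pairs was not counted. Values below with "paired" come from this fit.

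**Figure D3:**
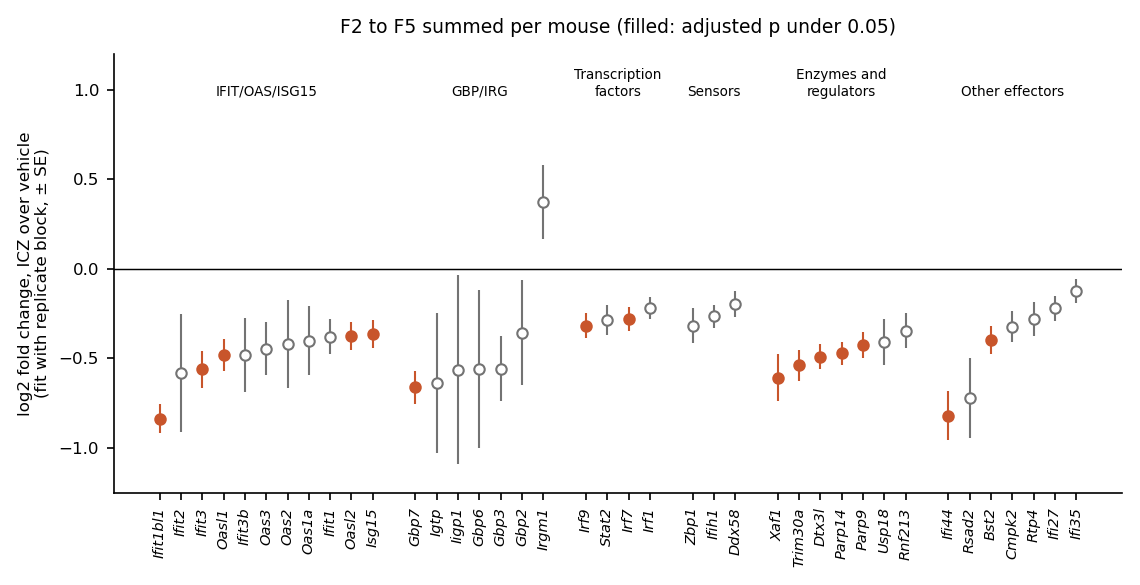
Log2 fold change of ICZ over vehicle for each of the 39 genes, F2 to F5 summed per mouse, from the fit with the replicate number as a block; bars are SE, filled points have an adjusted p below 0.05. All points but Irgm1 lie below 0, and the 15 filled points fall in 5 of the 6 role groups.

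In the IFIT/OAS/ISG15 group all 11 values were negative, from -0.83 to -0.36 with a median of -0.44, and 5 genes fell in the paired fit. Ifit1bl1 had 53.6, 50.3 and 41.6 CPM in vehicle replicates 1 to 3 and 33.4, 24.6 and 23.99 CPM in ICZ replicates 1 to 3. These values did not overlap, and the log2 fold change was -0.83 ± 0.15 (adjusted p = 0.723; paired -0.84 ± 0.08, adjusted p = 5.96e-05). Ifit3 had 18.9, 14.2 and 15.4 CPM against 13.2, 9.62 and 10.2 CPM, again without overlap (paired -0.56 ± 0.10, adjusted p = 0.0131). Isg15 had 40.9, 29.8 and 25.8 CPM against 32.8, 21.7 and 20.8 CPM (paired -0.36 ± 0.08, adjusted p = 0.0328). Its groups overlapped, with replicate 1 the highest mouse in each treatment. Ifit1 had 120, 91.9 and 72.4 CPM against 100.4, 56.2 and 64.2 CPM (paired -0.38 ± 0.10, adjusted p = 0.116). Oasl1 and Oasl2 fell by 0.48 ± 0.09 and 0.37 ± 0.08 in the paired fit (adjusted p = 0.0169 and 0.0238).

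Replicate 1 was usually the highest mouse of its treatment. Vehicle replicate 1 was the highest vehicle mouse in 10 of the 11 IFIT/OAS/ISG15 genes, and ICZ replicate 1 the highest ICZ mouse in 11 of 11. Over all members the numbers were 30 and 35 of 39. Replicate 1 was also the highest in summed absorptive enterocyte markers, with 36346 CPM in the vehicle and 32726 CPM in the ICZ mouse against 20607 to 26225 CPM in the others. The part of this in the pairing was not tested.

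In the GBP/IRG group 6 of 7 values were negative, with a median of -0.56, and 1 gene fell in the paired fit. Gbp7 had 22.0, 22.2 and 23.7 CPM in vehicle mice and 14.1, 14.9 and 13.8 CPM in ICZ mice, groups that stood well apart with little spread in each. Its log2 fold change was -0.66 ± 0.10 (adjusted p = 0.352; paired -0.66 ± 0.09, adjusted p = 0.00187), and DESeq2 called it without a block. Igtp had 38.8, 20.4 and 28.0 CPM in vehicle mice and 18.02, 23.4 and 13.8 CPM in ICZ mice, with pair 2 in the opposite direction to the others (-0.66 ± 0.26, adjusted p = 0.846; paired -0.64 ± 0.39, adjusted p = 0.605). Gbp3, Gbp2, Gbp6 and Iigp1 ranged from -0.66 to -0.37 at means of at most 4.29 CPM.

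Set side by side, the summed levels of the groups differed in how the mice ranked. The IFIT/OAS/ISG15 sum was 356, 282 and 251 CPM in vehicle mice and 285, 177 and 188 CPM in ICZ mice, which overlap and give a ratio of means of 0.731. The GBP/IRG sum was 71.4, 50.9 and 61.6 CPM against 41.0, 45.8 and 35.8 CPM, which do not overlap and give 0.666. Most of this sum came from Igtp and Gbp7, with vehicle means of 29.1 and 22.6 CPM. Every other gene of the group had a mean of at most 4.29 CPM. Vehicle replicate 1 was highest in 3 of 7 GBP/IRG genes, and ICZ replicate 1 in 4. These counts include Gbp2, Gbp6 and Iigp1, with vehicle means of at most 1.41 CPM, where few reads limit the ranking. A difference between the groups in the response was not tested.

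**Figure D4:**
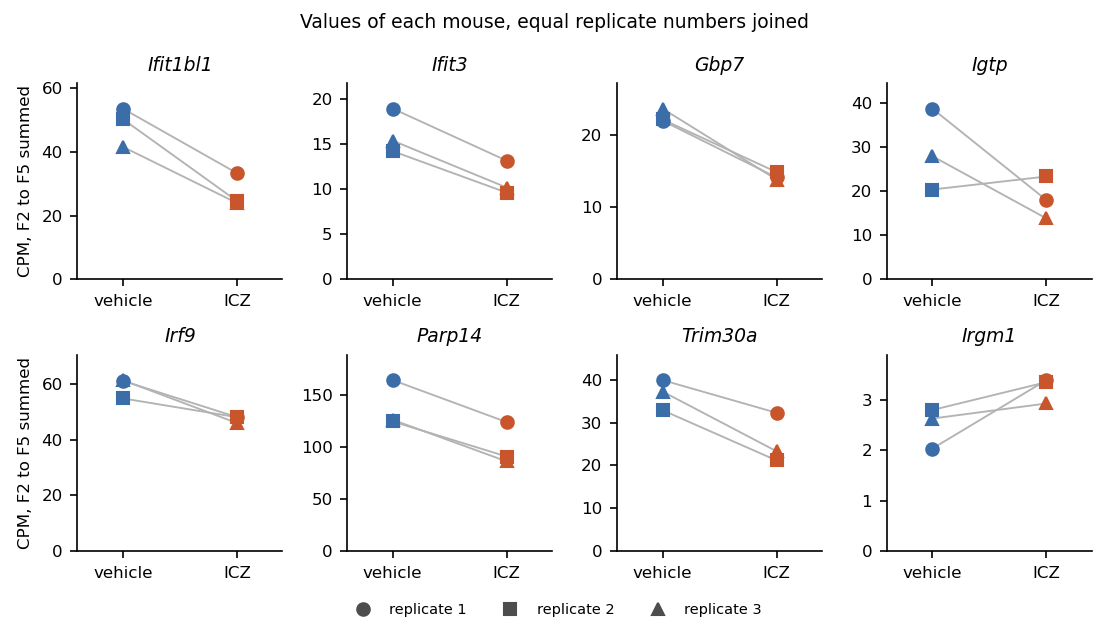
CPM of 8 genes in each mouse with F2 to F5 summed, vehicle and ICZ; symbols and lines join mice of equal replicate number, and each axis starts at 0. Ifit1bl1, Ifit3, Gbp7, Irf9, Parp14 and Trim30a are lower in each ICZ mouse than in any vehicle mouse, Igtp rises in pair 2, and Irgm1 is higher in each ICZ mouse.

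The transcription factors had values from -0.32 to -0.22. Irf9 had 61.3, 54.9 and 61.5 CPM in vehicle mice and 48.2, 48.2 and 46.1 CPM in ICZ mice without overlap (-0.32 ± 0.08; paired -0.32 ± 0.07, adjusted p = 0.0365). Irf7 had 85.1, 68.7 and 72.4 CPM against 71.9, 55.6 and 59.1 CPM (paired -0.28 ± 0.07, adjusted p = 0.0443). Irf1 had 309, 268 and 282 CPM against 269, 224 and 247 CPM, a paired value of -0.22 ± 0.06 that missed the threshold (adjusted p = 0.0866), as did Stat2. For the sensors Ddx58 and Ifih1 the paired values were -0.20 ± 0.07 and -0.27 ± 0.07 (adjusted p = 0.217 and 0.0624), and no sensor passed.

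Of the 7 enzymes and regulators 5 fell in the paired fit, the largest share of any role group. Dtx3l had 62.4, 54.8 and 48.7 CPM in vehicle mice and 43.7, 40.3 and 34.1 CPM in ICZ mice without overlap (paired -0.49 ± 0.07, adjusted p = 0.00204). Its partner Parp9 had 126, 87.2 and 85.4 CPM against 87.4, 74.1 and 59.8 CPM (paired -0.42 ± 0.07, adjusted p = 0.00817). Parp14 had 164, 125 and 126 CPM against 124, 90.9 and 86.2 CPM (paired -0.47 ± 0.06, adjusted p = 0.00138), with the highest ICZ mouse just under the lowest vehicle mouse. Trim30a, a TRIM-family regulator, had 40.0, 32.9 and 37.3 CPM against 32.3, 21.2 and 23.3 CPM (paired -0.54 ± 0.09, adjusted p = 0.00596). Xaf1 was counted in this group, though it is a pro-apoptotic interferon target. It had 11.7, 10.3 and 11.8 CPM against 9.28, 6.66 and 6.48 CPM (paired -0.61 ± 0.13, adjusted p = 0.0304). Usp18, the protease that removes ISG15 and brakes receptor signalling, and Rnf213 did not pass (adjusted p = 0.134 and 0.133).

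Among the other effectors Ifi44 had 19.5, 12.1 and 14.7 CPM in vehicle mice and 11.02, 8.92 and 6.32 CPM in ICZ mice without overlap (paired -0.82 ± 0.14, adjusted p = 0.0112). Bst2 had 40.5, 28.1 and 33.2 CPM against 30.6, 21.5 and 25.04 CPM (paired -0.40 ± 0.08, adjusted p = 0.0185). Rsad2, which encodes viperin, had a paired value of -0.72 ± 0.22 that did not pass (adjusted p = 0.261). Ifi27 and Ifi35 had paired values of -0.22 ± 0.07 and -0.13 ± 0.07 (adjusted p = 0.136 and 0.405). With F5 left out of the sums 37 of the 38 members that passed the filter were negative with a median of -0.40, and the paired fit called 11 members.

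The paired count depended on the pairs used. Leaving out pair 1, 2 or 3 in turn left 11, 3 and 7 members that fell, out of 291, 26 and 110 genes called. Ifit1bl1 and Ifi44 were among them each time, and Gbp7, Dtx3l, Ifit3, Parp14 and Trim30a in all but the fit without pair 2. Without vehicle replicate 1 the median of the unpaired values was -0.29, and without ICZ replicate 1 it was -0.60; 38 members were negative in both.

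Within single fractions no member passed without pairing. In F1 the members did not share a direction: 24 of 37 were negative (51.6% of all genes), and the medians were 0.02 in the IFIT/OAS/ISG15 group and -0.22 in the GBP/IRG group. ICZ values of 8 members lay below all vehicle values (background 9.11%) and those of 4, Ifi35, Ifih1, Oas3 and Ifit2, above them (10.7%). The calls over all genes in F1 made up 0.0324%. F1 has no library of ICZ replicate 3, the lowest ICZ mouse in 23 of 39 members of the summed comparison and the highest in 0. ICZ replicate 1, the highest in 35, is present. The part of this missing mouse in the difference between F1 and the other fractions was not tested.

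In F2, 36 of 37 members were negative (50% of all genes), with medians of -0.56 in the IFIT/OAS/ISG15 group and -0.78 in the GBP/IRG group, with 13 below all vehicle values (7.12%) and 0 above (9.75%). Same-numbered F2 libraries also deviated together, more weakly (r = 0.108 to 0.185). With the replicate number as a block 5 members fell, Ifit1bl1, Parp14, Parp9, Dtx3l and Gbp7. Of all genes 1.82% were called with it, 1.06% lower and 0.768% higher. Without a block 0.0165% of genes were called. Ifit1bl1 had 73.2, 67.6 and 68.8 CPM in F2 of vehicle mice and 47.7, 44.0 and 28.3 CPM in F2 of ICZ mice (paired -0.86 ± 0.14, adjusted p = 0.00549). Parp14 had 193, 148 and 177 CPM against 134, 107 and 96.1 CPM (paired -0.65 ± 0.11, adjusted p = 0.00549). Gbp7 had 25.4, 26.0 and 32.9 CPM against 17.8, 17.5 and 14.9 CPM (paired -0.78 ± 0.17, adjusted p = 0.0262). None of these values overlapped between treatments. Without ICZ replicate 1, 9 members fell in F2 without a block, among 267 genes.

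In F3, 34 of 36 members were negative (50.6% of all genes) with a median of -0.39, and 17 lay below all vehicle values (6.43%) and 0 above (8.53%). In F4, 30 of 35 were negative (52.4% of all genes) with a median of -0.23; 5 lay below all vehicle values (4.9%) and 0 above (3.94%). Without vehicle replicate 1 that median was -0.07 and 20 members were negative. In F5, 33 of 35 were negative (48.3% of all genes) with a median of -0.40. The values of 4, Irf9, Oas1a, Ifi27 and Igtp, lay below all vehicle values (4.86%) and those of 0 above (3.19%). Without ICZ replicate 1, whose F5 library had the most concentrated reads, the F5 median was -0.77, and without ICZ replicate 2 it was -0.15. The share of genes called was 0.00815% in F3, 0% in F4 and 0% in F5.

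Gbp7 and Ifit1bl1 are given as examples and do not stand for the members as a set. Both were called with the replicate block in the summed comparison and in F2. Those fits hold no F1 library, so the choice favours larger differences outside F1. The log2 fold change of Ifit1bl1 was -0.33 ± 0.21, -0.84 ± 0.17, -0.76 ± 0.19, -0.74 ± 0.22 and -0.95 ± 0.63 from F1 to F5. That of Gbp7 was -0.13 ± 0.46, -0.78 ± 0.17, -0.66 ± 0.18, -0.73 ± 0.26 and -0.42 ± 0.32. The difference of the ICZ effect between fractions was itself tested in all 29 libraries. No member passed, among 38 tested (lowest adjusted p = 0.927; 0 with an unadjusted p below 0.05), and 0.00711% of all genes did. Of the slopes of the effect over fraction number none passed among the members either (lowest adjusted p = 0.762; 2 with an unadjusted p below 0.05, Iigp1 and Irf9), against 0.0142% of all genes.

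**Figure D5:**
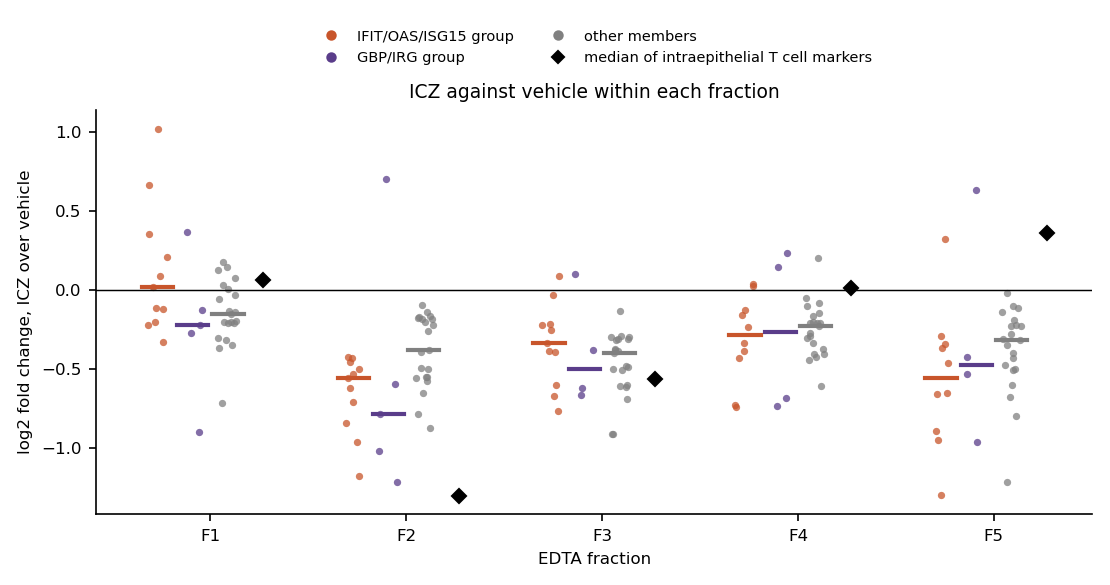
Log2 fold change of ICZ over vehicle within each fraction for the members that passed the filter there, by group, with bars at the group median; diamonds give the median of the intraepithelial T cell markers. From F2 to F5 the medians of the 3 groups lie below 0. The T cell median goes from -1.30 in F2 to 0.36 in F5, where the T cell sum of ICZ replicate 1 alone lies above the vehicle range.

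Upstream of these genes, the table lists 21 interferon genes. Of these 17 had 0 reads in all 29 libraries, and Ifnk, Ifng, Ifna13 and Ifne together had 86 reads, 31 of them of Ifng; none passed the filter, so no change in an interferon could be tested. A 0 in this table does not show that a transcript was absent, since Muc2, an abundant goblet cell transcript, was listed at 0 as well. Among 11 receptor and JAK-STAT genes 6 were negative in the summed comparison, with a median of -0.02. Stat3 fell in the paired fit, from 172, 148 and 144 CPM to 144, 127 and 115 CPM (-0.27 ± 0.06, adjusted p = 0.0437). All 7 genes that brake the pathway were negative with a median of -0.08, and none passed.

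Of the wider interferon program, 38 of 41 other IFIT, OAS, ISG and antiviral genes were negative in the summed comparison, with a median of -0.30. Of them 4 fell in the paired fit, Ddx60, Samd9l, Phf11c and Shisa5, and none rose. Ddx60, an antiviral helicase, had 152, 117 and 109 CPM in vehicle mice and 132, 81.3 and 80.8 CPM in ICZ mice (paired -0.39 ± 0.07, adjusted p = 0.0133). Among 12 other GBP, IRG and interferon gamma genes 10 were negative (median -0.25). Cxcl9, a chemokine induced by interferon gamma, fell (paired -1.13 ± 0.26, adjusted p = 0.0401), and Serping1, a complement inhibitor, rose (paired 1.68 ± 0.33, adjusted p = 0.0206). All 11 immunoproteasome and MHC class I loading genes were negative with a median of -0.17, and none passed.

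From F1 to F5 of vehicle mice these lists behaved as follows. Of 38 other IFIT, OAS, ISG and antiviral genes 17 fell and 2 rose (median -0.72), of 11 other GBP, IRG and interferon gamma genes 3 fell (median -0.60), and of 11 immunoproteasome and MHC class I genes 7 fell (median -0.58). Of the 11 receptor and JAK-STAT genes 6 fell and none rose. Of the 7 brakes 2 rose, Socs1 and Ptpn2, and none fell.

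Some lists of other cell markers also leaned in 1 direction between ICZ and vehicle mice. All 17 intraepithelial T cell markers were negative in the summed comparison (median -0.60), Cd52 and Cd160 fell in the paired fit, and their summed level was 401 to 641 CPM in vehicle and 270 to 449 CPM in ICZ mice. Of 14 macrophage and dendritic cell markers 13 were negative (median -0.65), with sums of 46.5 to 93.8 CPM against 38.6 to 41.1 CPM. All 13 immediate early and dissociation stress genes were negative (median -0.53), and 7 fell in the paired fit. Their sums overlapped, at 1232 to 2753 CPM in vehicle and 764 to 1850 CPM in ICZ mice. Of 13 absorptive enterocyte markers 6 were negative (median 0.04), and 8 epithelial markers had a median of 0.04. The 5 stromal markers tested were all positive (median 2.85), with sums of 8.82 to 12.0 CPM against 12.1 to 50.3 CPM. The highest sum was that of ICZ replicate 3, whose F5 library held 150 CPM. Sums of the stem cell and proliferation, Paneth, goblet, and B and plasma cell lists overlapped between treatments. No marker on these lists was at 0 reads, save Muc2 among the goblet cell markers.

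The T cell markers and the interferon response genes are set side by side by fraction. In F2 all 16 T cell markers tested were negative (median -1.30), with sums of 605 to 1392 CPM in vehicle and 225 to 462 CPM in ICZ libraries. In F3 14 of 15 were negative (median -0.56), as were 34 of 36 members. In F4 their median was 0.02 and that of the members -0.23. In F5 13 of 15 T cell markers were positive (median 0.36) and 33 of 35 members negative. The F5 sums of the T cell markers were 448, 391 and 293 CPM in vehicle and 854, 268 and 322 CPM in ICZ libraries, so that ICZ replicate 1 was the only ICZ library above the vehicle range. Of the other ICZ libraries, replicate 2 (268 CPM) lay below the vehicle range and replicate 3 (322 CPM) within it. Without ICZ replicate 1, 35 of 36 members were negative in F5, and the T cell markers are not given for that fit. The part of macrophage, stress and stromal transcripts in the differences was not tested.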

How the data were processed

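The deposited table holds whole read counts per gene, made by the authors; the submitters' processing notes list FastQC 0.11.2, BWA 0.7.17-r1188, SAMtools 1.10 and HTSeq 0.11.2 with GRCm38.p6 and mm10, with no order. Strand setting, annotation release and molecular identifiers were not given in the sources used here. The 5 summary lines that name no gene were left out; gene reads made up 51.6% to 61.6% of the counted reads (median 6351137 per library). 1 library titled as undetermined was in no group. Replicates are separate mice as the titles number them, and no pair of libraries agreed within sampling noise (chi-square per degree of freedom 4.74 to 96.1 over 28 pairs).

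Counts were filtered with filterByExpr and tested with edgeR 4.0.16 (TMM factors, robust quasi-likelihood test, Benjamini-Hochberg over all genes tested, threshold 0.05) in R 4.3.3; SE was taken as the size of the log2 fold change divided by the root of the F statistic. The comparisons were ICZ against vehicle (F2 to F5 summed per mouse, and per fraction), F5 against F1 within treatment with the mouse as a block, and the ICZ effect between fractions. Fits were also run on simulated data. The outcome is not given here, so it bears on no call above, with or without the replicate block. Alternatives were DESeq2 1.42.0, limma 3.58.1, other size factors, no filter, left-out mice or libraries and other fractions; those of the replicate block with pairs or F5 left out, F5 against F2 in vehicle mice, F4 against F1 in ICZ mice and the left-out F5 library were chosen after seeing the data.

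The replicate numbers come from the titles. In the summed counts the deviations of same-numbered mice correlated with r = 0.381, 0.247 and 0.472, and in F2 with 0.185, 0.108 and 0.168, so the numbers were taken to pair them there; mouse names in the titles share a number in pairs 2 and 3 but not in pair 1. Genes named in full are the 2 members of highest mean CPM in each role group and the members called in the summed comparison with or without the block; other members named (among them Oas3, Stat2, Zbp1, Usp18, Rnf213, Rsad2, Irgm1, Ifit2, Gbp2 and Gbp3) were chosen after their values were seen. The members and lists were chosen with earlier results of these data known.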

Additional observations from a re-analysis of the deposited data

Results flagged for a closer look

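For 4 members every ICZ library was above every vehicle library in F1 and every one below in another fraction. The difference between these single fractions was not tested by itself, and the joint test over the 5 fractions called none of them. Ifit2, an inhibitor of translation, had 1.79, 1.27 and 1.47 CPM in F1 of vehicle mice and 3.06 and 3.12 CPM in F1 of ICZ mice, a ratio of means of 2.04, against 0.453 in F4. In F4 Ifit2 did not pass the filter on low counts and had at most 1.90 CPM in any library. Oas3, a 2-5A synthetase, had 11.3, 13.0 and 13.5 CPM against 17.9 and 14.5 CPM in F1 (ratio 1.29) and a ratio of 0.629 in F2. Ifih1 had a ratio of 1.13 in F1 and 0.822 in F3. Ifi35, a partner of other interferon-induced proteins, had 1.11 in F1 and 0.826 in F3. F1 holds 2 ICZ libraries and none of replicate 3, the lowest ICZ mouse in 23 of 39 members of the summed comparison. Of the members tested in F1 10.8% lay above all vehicle values, as did 10.7% of all genes. The share of all genes above in F1 and below in another fraction was not counted.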

How the results depend on the processing

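The counts in this section are of members, and calls over all genes also shifted with the setting. The replicate block took those from 0 to 231 in the summed comparison and from 2 to 221 in F2. For most other settings the calls over all genes are not printed here. Without a block no member passed in the summed ICZ comparison, and the counts under other settings were 15 with the replicate block, 2 with DESeq2 and 4 with no filter. With the block they were 11 for F2 to F4, and 11, 3 and 7 without pair 1, 2 or 3. Without single mice and no block the count stayed at 0 of the members. In F2 the count was 0, and it was 5 with the replicate block, 4 with DESeq2, 8 with no filter and 0 to 9 with one mouse left out. In F3 it was 9 with no filter and 0 to 2 with one mouse left out, and in F4 it was 1 with no filter. The block changed no call of a member in F1, F3, F4 or F5, and in F3 to F5 the numbers did not pair the libraries by correlation. The count from F1 to F5 in vehicle mice ranged from 7 to 23 with one mouse left out and was 11 for F5 against F2, where Bst2 turned to a log2 value of 0.014. In ICZ mice it ranged from 14 to 33 and was 14 for F5 against F2. Over all fractions of vehicle mice it ranged from 0 to 21. With no mouse block the 3 counts were 21, 29 and 17. The cause of these shifts was not tested, apart from the fewer samples of a left-out mouse and the other genes tested with no filter. Gbp2, Gbp6, Iigp1 and Ifit2 had means under 2 CPM in both treatments of the summed comparison, where few reads limit the precision.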
